A study of Arabidopsis thaliana with 38 samples.

Results

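The comparison set 3 arrays of UAS-NUC against 3 arrays of UAS-MGP, which make up 6 of the 38 arrays of the study. They were chosen by their labels and for a similar profile of spike-in and low signals. Both groups are Arabidopsis thaliana lines of the C24 ecotype whose genotype is given as SHR with a UAS construct that drives NUC in one line and MGP in the other. RNA came from roots of seedlings 5 days after germination on standard medium, from cells sorted by fluorescence of the ground tissue marker J0571, and was labelled by a one-cycle protocol. The values are MAS5 signals, a linear intensity for each probe set of the Affymetrix ATH1 array. UAS constructs are switched on by the yeast activator GAL4, and J0571 is an enhancer trap line that makes GAL4 and a fluorescent protein in the ground tissue. By that design each gene is driven in the layer that was sorted, which could not be checked here.

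Further points limit the pair as a model. The labels do not say whether SHR stands for a mutant of the SHORT-ROOT gene, and both lines carry it, as does the SHR group that holds no UAS construct. They give neither the number of independent transgenic lines nor the number of plants per sample. They call the arrays biological replicates without naming separate plants or days, and the p-values below thus reflect only how these samples vary. The protocol text allows protoplasts or tissue. The probe sets of NUC and MGP are unnamed in the annotation used here, so the level of the driven gene was not analysed here in either line.

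The ground tissue of the root is made of the cortex and the endodermis, which arise by an asymmetric division of a shared stem cell daughter. SHORT-ROOT (SHR), a GRAS transcription factor made in the stele, moves into the adjacent layer, where it acts with SCARECROW (SCR) to direct that division and endodermal fate. NUTCRACKER (NUC) and MAGPIE (MGP) belong to the BIRD group of C2H2 zinc finger proteins, which bind GRAS proteins and DNA, and JACKDAW (JKD), BLUEJAY (BLJ) and IMPERIAL EAGLE (IME) are further members. By their labels, the arrays here compare the same sorted layer in 2 SHR lines that each drive a member of that group. Whether a difference between the lines is a response to the driven gene was not tested.

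The 6 arrays of the pair were alike in spike-in signal and in the range of low signals. The pair was chosen for this likeness, which is thus no independent check of the arrays. The bacterial spike-in ratio (bioB to cre) was -5.48 ± 0.07 log2 units in UAS-NUC and -5.48 ± 0.04 in UAS-MGP (SD, n = 3 each). The 10th percentile of the signal lay between 8.30 and 9.83 in UAS-NUC and between 8.08 and 8.74 in UAS-MGP, against 3.23 to 3.43 in SHR and 3.02 to 3.89 in wild type (WT). Low signals of the pair thus sat higher than those of SHR and WT, so levels near the floor are not compared with these groups beyond high or low.

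UAS-NUC 2 stood apart from the other UAS-NUC arrays. Over the tested probe sets it correlated at 0.952, 0.963 and 0.958 with UAS-MGP 1, 2 and 3, and at 0.903 and 0.938 with UAS-NUC 1 and 3, which correlated at 0.979 with each other. On the MGP side, arrays 1 and 3 correlated at 0.985, and array 2 lay closer to UAS-NUC, at 0.898 and 0.925 with UAS-NUC 1 and 3 where the others lay between 0.818 and 0.867. The 3' to 5' ratio of the actin control, a sign of RNA quality, was -0.771 log2 units on UAS-MGP 2 and between 1.26 and 1.85 on the other 5 arrays. The same ratio of the GAPDH control was 0.655 on UAS-MGP 2, within the range of 0.650 to 1.158 on the other 5. The part of RNA quality in any result was not tested. The typical spread between the arrays of a group, as the square root of the median variance, was 0.310 log2 units in UAS-NUC and 0.215 in UAS-MGP, against 0.140 to 0.277 in the other 6 groups of the fit.

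**Figure D1:**
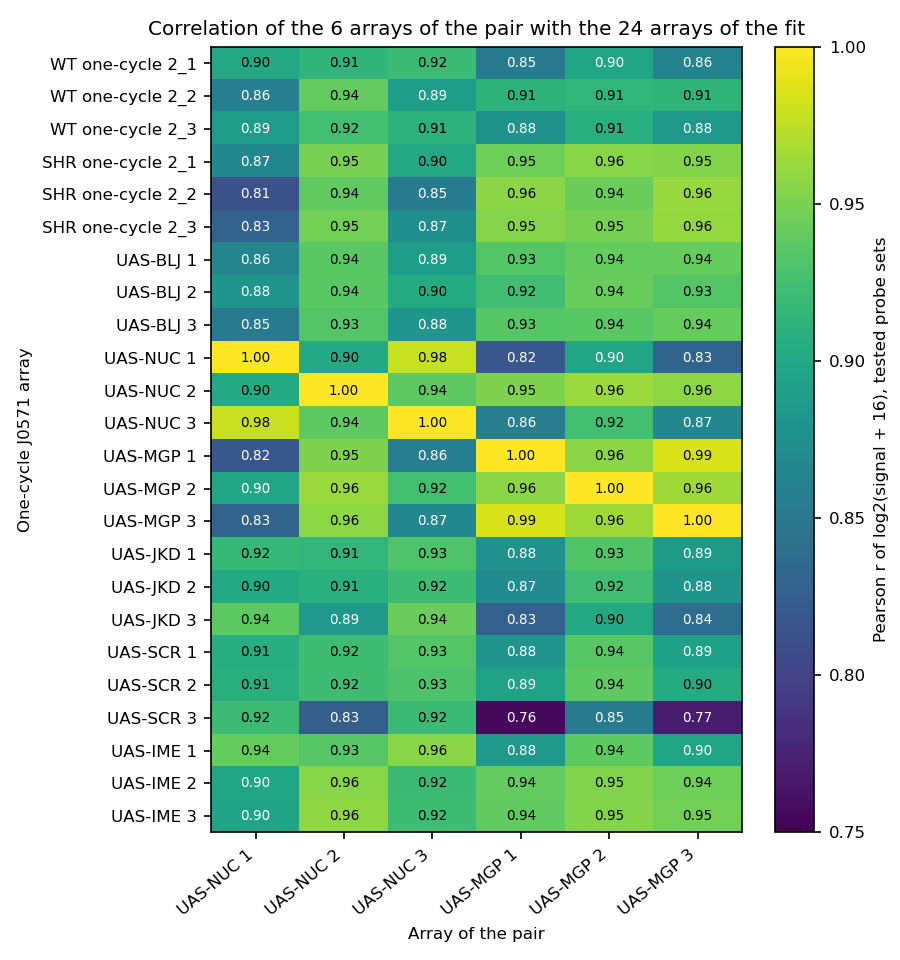
Pearson correlation of log2(signal + 16) over the tested probe sets between each of the 6 arrays of the pair (horizontal axis) and each of the 24 one-cycle J0571 arrays (vertical axis), with the colour giving the coefficient. UAS-NUC 2 correlates at 0.952 to 0.963 with the UAS-MGP arrays and at 0.903 and 0.938 with the other UAS-NUC arrays.

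Of 15777 probe sets tested, 4645 (29.4%) differed between the lines by the limma fit on 24 arrays at an adjusted p under 0.05. UAS-NUC was higher at 2181 (13.8%) and lower at 2464 (15.6%). At 2-fold or more, 1045 (6.62%) were higher and 598 (3.79%) were lower. The median difference of all tested probe sets was -0.11 log2 units. That fit uses the pooled spread of 8 groups, which is smaller than the spread of UAS-NUC itself. Fitted on the 6 arrays alone, 440 of 14007 probe sets were higher (3.14%) and 248 lower (1.77%). The 6 arrays also leave only 4 residual degrees of freedom, and the reason for the smaller count was not tested.

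The count moved with each array. It rose to 7760 without UAS-NUC 2 and to 5249 without UAS-MGP 2. It was 1527 without UAS-NUC 1, 1740 without UAS-NUC 3, 1976 without UAS-MGP 1 and 2159 without UAS-MGP 3. Among the probe sets at least 2-fold higher in UAS-NUC, UAS-NUC 2 was the UAS-NUC array nearest to UAS-MGP in 1016 of 1045 (97.2%), and among the lower ones in 482 of 598 (80.6%). Calls that held in the 24-array fit, on the 6 arrays alone and with each of the 6 left out in turn numbered 405 higher (2.57%) and 228 lower (1.45%), and a gene is said to hold below where it was among these.

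Genes highest in UAS-NUC against UAS-MGP were a mixed group. The rule for named genes took the 12 largest called differences among genes with one clear probe set, and these ran from 2.48 to 3.63 log2 units. AT1G10390, which encodes a nucleoporin of the Nup98 type, had signals of 787, 213 and 623 in UAS-NUC 1 to 3 and of 23.7, 32.4 and 16.4 in UAS-MGP 1 to 3. Every UAS-NUC array was far above every UAS-MGP array, by 3.63 ± 0.34 log2 units (SE, adjusted p = 3.72e-07). SHR held 231 ± 29 and WT 297 ± 41 (SD, n = 3), so that every UAS-MGP array was below both means. The signal was also low in UAS-BLJ (9.13 ± 7.44), UAS-SCR (26.7 ± 5.1) and the line labelled UAS-JKD (53.7 ± 22.2), but not in UAS-IME (318 ± 112).

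MSRB6, a methionine sulfoxide reductase that repairs oxidised protein, gave 1836, 1000.4 and 1701 in UAS-NUC and 119.6, 199 and 85.0 in UAS-MGP. The difference was 3.37 ± 0.32 (adjusted p = 3.47e-07), with UAS-NUC near WT (1191 ± 434) and UAS-MGP near SHR (169 ± 40). AT5G41810 gave 1081, 409 and 1088 against 39.1, 153 and 60.5, a difference of 3.17 ± 0.39 (adjusted p = 1.41e-05). AT5G64870, a flotillin-like membrane protein, gave 1003, 343 and 1019 against 64.4, 151 and 48.5, a difference of 2.92 ± 0.40 (adjusted p = 4.71e-05). In these genes UAS-NUC 2 was the lowest UAS-NUC array and UAS-MGP 2 the highest UAS-MGP array, and the lines still did not overlap.

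AT4G11190, of the dirigent family that guides the coupling of phenolic radicals, was among the tightest differences. Its signals were 802, 659 and 897 in UAS-NUC and 99.3, 129.6 and 103 in UAS-MGP (2.66 ± 0.27, adjusted p = 1.2e-06), while WT reached 3099 ± 956. AT5G04120, of the phosphoglycerate mutase family, gave 1653, 1238 and 1634 against 239, 227 and 225, a difference of 2.62 ± 0.20 (adjusted p = 1.38e-08). For both, all arrays of a line lay close together and the gap between the nearest arrays was 2.21 and 2.30 log2 units.

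A pair of genes for MD-2-related lipid recognition proteins was also in the group. AT2G16005 gave 1162, 754 and 1187 in UAS-NUC against 95.3, 189 and 177 in UAS-MGP (2.65 ± 0.30, adjusted p = 4.71e-06). AT5G23830 gave 961, 1468 and 841 against 181, 170.2 and 171 (2.50 ± 0.21, adjusted p = 4.4e-08). For the second gene SHR held 1954 ± 188 and WT 544 ± 73, so UAS-MGP was below both means, as it was for AT1G10390 and AT5G04120.

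AT1G52560, a small heat shock protein, rose to 885 and 803 in UAS-NUC 1 and 3 but was 135 in UAS-NUC 2, against 48.7, 74.3 and 41.5 in UAS-MGP (2.79 ± 0.46, adjusted p = 0.000368). AT4G36430, a class III peroxidase, gave 3574, 1322 and 3309.5 against 228, 900.1 and 397 (2.48 ± 0.45, adjusted p = 0.000775). AT2G45750 gave 2177, 633 and 1621 against 84.5, 434 and 145 (2.77 ± 0.53, adjusted p = 0.00124). In all 3, the second array of each line lay nearest the other line.

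AT3G28550, an extensin-like cell wall protein, was the 1 gene of the 12 that did not hold. Its signals were 397, 65.1 and 462 in UAS-NUC and 15.5, 64.9 and 2.36 in UAS-MGP, so the second arrays were level. The difference of 2.81 ± 0.69 had an adjusted p of 0.00647 in the fit of 24 arrays and of 0.0644 on the 6 arrays alone.

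Genes lowest in UAS-NUC were sharper: all 12 held, and their differences ran from -3.47 to -2.52 log2 units. AT4G20480 gave 30.7, 38.4 and 22 in UAS-NUC and 487, 515 and 473 in UAS-MGP, a difference of -3.47 ± 0.21 (adjusted p = 2.99e-10). SHR held 514 ± 41 and WT 17 ± 12.7. AT1G23960 gave 1.40, 4.97 and 3.64 against 139, 214 and 191 (adjusted p = 1.05e-09), with 185 ± 40 in SHR and 1.96 ± 0.27 in WT. All 3 UAS-NUC signals of AT1G23960 lay under the 10th percentile of their arrays, so the size of its difference is set by the pseudocount: it was -3.34 with 16, -5.47 with 1 and -1.85 with 64. Both genes were at a high signal in UAS-MGP and SHR and at a low one in UAS-NUC and WT, near the bottom of the array for AT1G23960 only.

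AT5G45500 was the most even, at 20.8, 19.4 and 31.1 in UAS-NUC and 369.9, 366 and 367 in UAS-MGP (-3.28 ± 0.16, adjusted p = 1.07e-11). AT5G56220, a P-loop ATPase, gave 95.9, 110.2 and 81.7 against 716, 570.7 and 644 (-2.56 ± 0.24, adjusted p = 3.72e-07). The nearest arrays were 3.02 and 2.22 log2 units apart, and UAS-NUC 2 lay with its own line in both.

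A set of smaller signals followed the same form. AT2G04800 gave 51.1, 26.6 and 38.5 in UAS-NUC against 363, 369 and 389 in UAS-MGP (-2.86 ± 0.21, adjusted p = 1.15e-08). AT4G02540 gave 23.3, 37.2 and 40.2 against 284, 259 and 358 (-2.68 ± 0.19, adjusted p = 5.36e-09). AT2G02400 gave 17.4, 47.8 and 20.9 against 242, 241 and 221 (-2.55 ± 0.19, adjusted p = 1.4e-08). In each, SHR lay between 169 and 242 on average and WT between 16.1 and 27.5.

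Genes of specialised metabolism and defence were found here as well. AT5G47980, a BAHD acyltransferase of the thalianol triterpene gene cluster, gave 17.8, 14.3 and 9.08 in UAS-NUC against 182, 331 and 236 in UAS-MGP (-3.13 ± 0.24, adjusted p = 1.38e-08). AT4G15390, another BAHD acyltransferase, gave 57.3, 51.2 and 55.0 against 259, 714 and 313 (-2.52 ± 0.27, adjusted p = 2.17e-06). PDF2.5, a plant defensin, gave 181, 1006 and 278 against 3151, 3329 and 3833 (-3.14 ± 0.51, adjusted p = 0.000294). For PDF2.5 the WT level (2636 ± 982) was on the side of UAS-MGP, unlike that of the acyltransferases, at 13 ± 9.3 and 15.9 ± 3.4.

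DI21, named as a drought-induced gene, gave 529, 1411 and 787 in UAS-NUC against 6626, 4536 and 4665 in UAS-MGP (-2.61 ± 0.34, adjusted p = 2.24e-05). AT5G41685, a Tom7 subunit of the translocase that imports proteins at the mitochondrial outer membrane, gave 95.6, 184 and 102 against 1034, 654 and 832 (-2.61 ± 0.22, adjusted p = 6.01e-08). UAS-NUC 2 was the highest UAS-NUC array for both, yet below every UAS-MGP array.

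**Figure D2:**
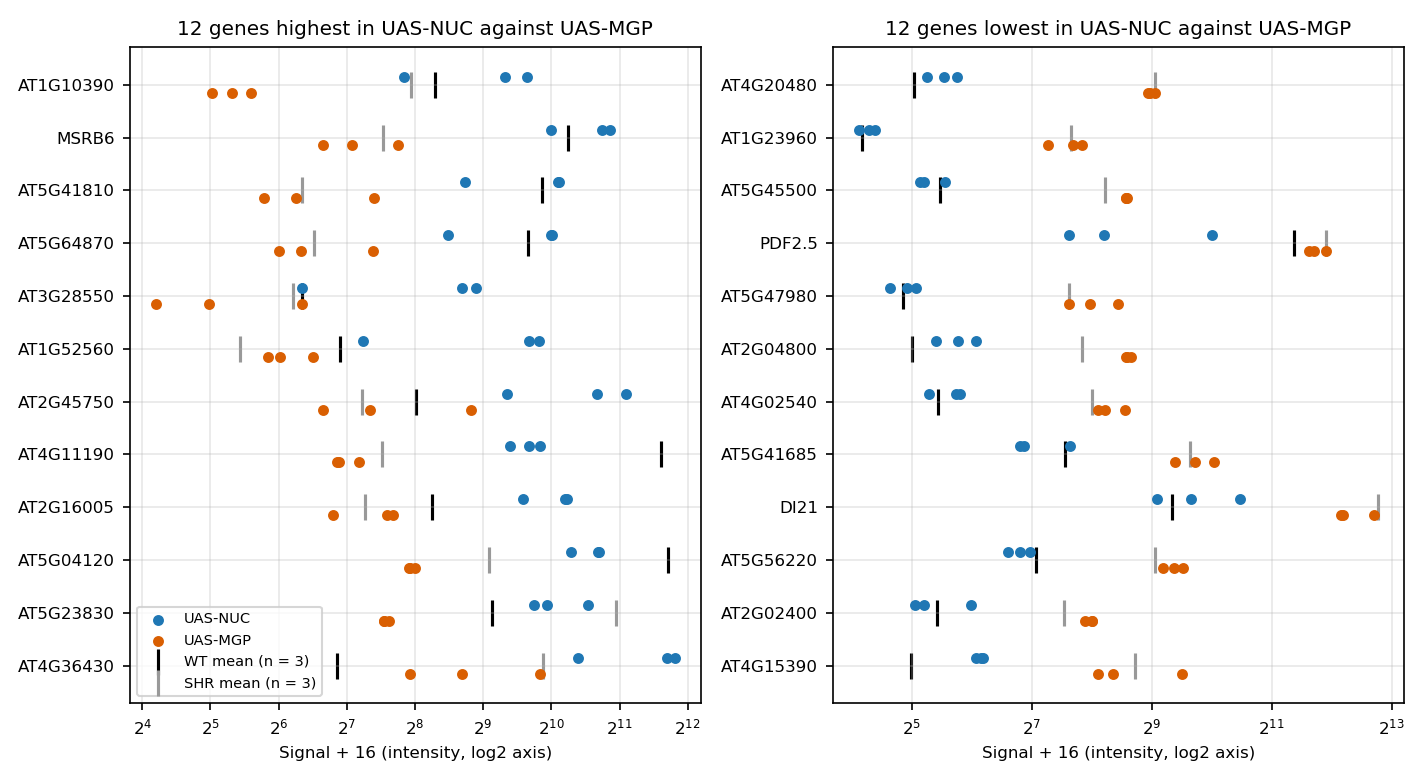
Signal + 16 (intensity on a log2 axis) of the 12 highest and the 12 lowest named genes on each array of UAS-NUC and UAS-MGP, with the means of SHR and WT as reference marks. Among the lowest genes the lines are 1.63 to 3.17 log2 units apart at their nearest arrays, and among the highest the gap falls to 0.00 at AT3G28550.

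The largest differences in the lower direction fell on probe sets with no gene in the annotation used. Probe set 248727_at gave 12, 4.27 and 17.4 in UAS-NUC and 994, 1019 and 914 in UAS-MGP (adjusted p = 7.78e-13). Probe set 248729_at gave 8.48, 2.05 and 1.53 against 566, 819 and 628 (adjusted p = 4.9e-13). All 3 UAS-NUC signals of the second and 1 of the first lay under the 10th percentile of their arrays, so the size of these differences is set by the pseudocount. For 248727_at it was -5.22 with 16, -6.50 with 1 and -3.79 with 64, and for 248729_at -5.10, -7.31 and -3.42. Both were high in SHR (1197 ± 267 and 466 ± 162) and near the floor in WT (9.05 ± 7.33 and 1.21 ± 0.47). In the other direction 261459_at gave 595, 217 and 717 against 20.9, 58.1 and 32.7 (3.2 ± 0.39, adjusted p = 1.2e-05), and 255587_at gave 1664, 539 and 1922 against 73.3, 261 and 99.3 (3.1 ± 0.60, adjusted p = 0.00134).

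The reference groups separated the ends of the list. For all 12 of the lowest genes the UAS-MGP mean was within 1 log2 unit of SHR, and for none was the UAS-NUC mean that close to SHR. For the 12 highest genes UAS-MGP was within that distance of SHR in 8 and UAS-NUC within it of WT in 5. The nearer line was counted over probe sets whose nearest arrays lay more than 1 log2 unit apart, 78 with UAS-NUC below (0.494% of those tested) and 71 with UAS-NUC above (0.45%).

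Among those 78, the WT mean was nearer to UAS-NUC in 71 and the SHR mean nearer to it in 11. The limma fit called 67 of them lower in WT than in SHR, and 1 higher. Of all 15777 tested probe sets it called 2763 lower in WT and 2682 higher. The nearer line was not counted over all tested probe sets, so those counts have no such share beside them. Of the other lines, BLJ was nearer to UAS-NUC in 17, SCR in 24, IME in 33 and the line labelled JKD in 36. SHR and these 4 lines were all nearer to UAS-MGP in 26, and in 24 of these WT was nearer to UAS-NUC. Among the 71 with UAS-NUC above, WT was nearer to UAS-NUC in 41 and SHR in 10, and 39 were called higher in WT than in SHR and 3 lower. SHR and the 4 other lines were all nearer to UAS-MGP in 23 of them, and in 8 of these WT was nearer to UAS-NUC.

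Over all tested probe sets the difference between the lines followed that between WT and SHR in the one-cycle arrays, which hold none of the 6 arrays of the pair. Of 2682 probe sets higher in WT than in SHR, 75.4% were on average above in UAS-NUC, 33.4% were called higher and 2.50% lower. Of 2763 lower in WT, 21.8% were above in UAS-NUC, 5.50% were called higher and 35.6% lower. The share above in UAS-NUC was 38.5% of the 10332 not called between WT and SHR, and 41.9% of all tested. Across 15777 probe sets, which are not independent and share the arrays, the differences correlated at 0.507.

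The two-cycle arrays of WT and SHR gave the opposite order. Of 2040 probe sets higher in WT there, 28.0% were above in UAS-NUC, 7.21% were called higher and 20.6% lower. Of 1949 lower in WT, 72.1% were above in UAS-NUC, 34.3% were called higher and 8.16% lower. The correlation was -0.341 across 13929 probe sets. A statement on which line was nearer to WT therefore holds for the one-cycle arrays only.

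**Figure D3:**
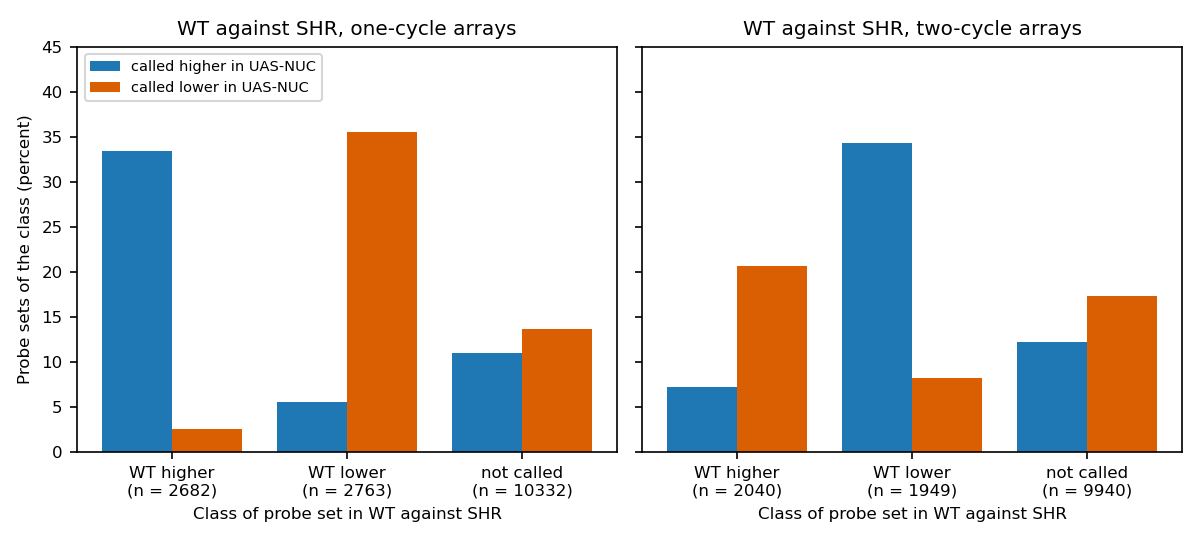
Percent of probe sets called higher or lower in UAS-NUC than in UAS-MGP, by their class in WT against SHR, for the one-cycle (left) and the two-cycle arrays (right), with the number of probe sets under each class. The class higher in WT holds 33.4% higher calls in the one-cycle and 7.21% in the two-cycle arrays.

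A single value per array was made from the probe sets that differed at least 2-fold between WT and SHR in the one-cycle arrays (977 higher and 1044 lower in WT), scaled to 0 at the mean of SHR and 1 at that of WT. It was 0.677, 0.413 and 0.626 in UAS-NUC 1 to 3 and 0.104, 0.254 and 0.110 in UAS-MGP 1 to 3. The lines did not overlap, and their second arrays were again nearest to each other. In the other lines it ran from 0.103 to 0.175 in UAS-BLJ, 0.288 to 0.445 in UAS-IME, 0.335 to 0.569 in UAS-SCR and 0.424 to 0.527 in the line labelled UAS-JKD.

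Of 374 genes in 20 lists of cell types, pathways and stresses, 74 had a probe set with a single named gene and 64 passed the filter on low signals. The lists were chosen with earlier results of these data known, so the shares below describe their members and are no test of the lists. In the fit of 24 arrays 32 of the 64 were higher in UAS-NUC (50%, against 13.8% of all tested probe sets) and 6 were lower (9.38%, against 15.6%). The median difference of the members was 0.71 log2 units, against -0.11 for all probe sets. On the 6 arrays alone 13 were higher and 3 lower, where 3.14% and 1.77% of all tested probe sets were. Of the members 9 and 2 held, against 2.57% and 1.45% of all tested probe sets. UAS-NUC 2 was the lowest UAS-NUC array in 29 of the 32 that rose.

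Regulators of the BIRD and GRAS families came first, with 4 measured members of 26. SCL23, a GRAS protein related to SCR and active in the endodermis, gave 21.8, 38.6 and 34.9 in UAS-NUC and 106, 94.4 and 105 in UAS-MGP. It fell by 1.32 ± 0.23 log2 units in UAS-NUC (adjusted p = 0.000509) and held, with 61.0 ± 10.3 in SHR and 38.9 ± 24.1 in WT. In the 24-array fit UAS-MGP was called above WT (1.20, adjusted p = 0.000446) but not above SHR (0.62, adjusted p = 0.0926). UAS-NUC was called below SHR (-0.70, adjusted p = 0.0203). The means of the other UAS lines lay between 65.2 and 92.8. JKD gave 70.6, 59.1 and 64.7 against 116, 106 and 139, and its difference of -0.75 ± 0.22 was called in the fit of 24 arrays (adjusted p = 0.0171) but not on the 6 alone (0.0557).

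JKD in the other groups was 215 ± 41 in SHR, 189.6 ± 67 in UAS-SCR, 147 ± 23 in WT, 102 ± 15 in the line labelled UAS-JKD, 30.2 ± 9.5 in UAS-BLJ and 23.2 ± 4.2 in UAS-IME. The line labelled as driving JKD thus held less JKD signal than SHR, which goes against its label, and it is named here by the label. BLJ gave 14.5, 18.7 and 46.9 in UAS-NUC and 6.84, 6.37 and 3.45 in UAS-MGP, and its difference of 0.91 ± 0.39 was not called (adjusted p = 0.0733). It stood at 443 ± 40 in UAS-BLJ, where it is the driven gene, 196 ± 26 in WT and 14.2 ± 9.1 in SHR. PHV, a class III HD-ZIP factor of the stele, was not called either (-0.59 ± 0.41).

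Endodermal genes, most of which serve the Casparian strip, the lignin band that seals the layer, were higher in UAS-NUC in 6 of 7 measured members, with a median of 1.28 log2 units. The receptor-like kinase SGN1 gave 377, 114 and 269 in UAS-NUC against 31.3, 72.2 and 43.1 in UAS-MGP (1.96 ± 0.34, adjusted p = 0.000468), and was the 1 member called on the 6 arrays alone. PER72, a peroxidase, gave 563, 187 and 511 against 46.9, 186 and 76.9 (1.91 ± 0.42, adjusted p = 0.00336). DIR9, of the dirigent family, gave 368, 131 and 311 against 71.8, 138 and 79.1 (1.28 ± 0.32, adjusted p = 0.00668). For the last of these, UAS-NUC 2 fell within the range of UAS-MGP.

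PER9, also a peroxidase, gave 213, 42.8 and 143 in UAS-NUC against 39.4, 41.2 and 30.7 in UAS-MGP (1.28 ± 0.36, adjusted p = 0.0144). GSO1, the receptor kinase that monitors the strip, gave 1136, 434 and 817 against 318, 555 and 379 (0.84 ± 0.28, adjusted p = 0.0297). PER39 was low in both lines, at 30.0, 32.6 and 27.2 against 23.5, 1.54 and 15.2, where WT held 5087 ± 585 (0.72 ± 0.26, adjusted p = 0.0441). EN7, an endodermal marker, was not called and lay the other way, with a difference of -0.66 ± 0.26.

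Summed over the 7 genes, the signal ran from 1360.3 to 2878 in UAS-NUC, from 928 to 1361 in UAS-MGP, from 1589 to 2262 in SHR and from 14526 to 20309 in WT. Both lines were thus far below WT in this list, and UAS-NUC 2 was at the top of the UAS-MGP range. Against SHR, in log2 units of the 24-array fit, UAS-NUC was not called for SGN1 (0.60), PER72 (0.12), DIR9 (-0.28) or PER9 (-0.19). UAS-MGP was called below SHR for SGN1 (-1.36), PER72 (-1.79), DIR9 (-1.56) and PER9 (-1.47). GSO1 was called above SHR in UAS-NUC (1.37) and EN7 below it (-1.34), and neither was called in UAS-MGP. PER39 was called against SHR in neither line. In sorted bulk samples, fewer cells of a type and less RNA per cell cannot be told apart.

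Cortex genes lay mostly the other way, with 3 of 5 lower in UAS-NUC and 1 higher. The cortex marker CORTEX, an aspartyl protease-like gene, gave 754, 1025 and 679 in UAS-NUC against 2334, 1801 and 2312 in UAS-MGP (-1.39 ± 0.25, adjusted p = 0.000624), and it held. CO2, whose promoter marks the cortex, gave 187, 419 and 249 against 819.5, 762 and 751 (-1.47 ± 0.44, adjusted p = 0.0198). AT1G62510, a lipid transfer protein-like gene of the same kind, gave 143, 49.7 and 119.8 against 284, 308 and 247 (-1.39 ± 0.27, adjusted p = 0.00125). In these 3 no UAS-NUC array reached any UAS-MGP array.

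AT3G21670 (NPF6.4), a nitrate transporter of the cortex list, rose in UAS-NUC, at 429.6, 429 and 403 against 273, 243 and 286 (0.62 ± 0.16, adjusted p = 0.00964). AT5G02000 was not called (-0.07 ± 0.21). The list summed to between 1534 and 1994 in UAS-NUC and between 3216 and 3805 in UAS-MGP, where WT held 1195 to 1690.2 and SHR 3520.4 to 4052. The members behind these sums departed from the reference groups in opposite directions. CORTEX was higher in UAS-MGP than in SHR (801 ± 199) by 1.43 ± 0.25 log2 units (adjusted p = 0.000961), and AT1G62510 was lower in UAS-MGP than in SHR (1145 ± 246), by -1.96 ± 0.27 (adjusted p = 0.000119). AT1G62510 was also higher in UAS-NUC than in WT (27.1 ± 3.0), by 1.39 ± 0.27 (adjusted p = 0.000696).

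Genes of endoplasmic reticulum bodies, stores of beta-glucosidase used in defence, were higher in UAS-NUC in all 5 measured members. NAI1, the bHLH factor that these bodies depend on, gave 125, 132 and 138 in UAS-NUC against 41.9, 64.8 and 58.4 in UAS-MGP (1.07 ± 0.25, adjusted p = 0.00482). JAL33, a jacalin lectin, gave 749, 368 and 605 against 91.2, 254 and 152 (1.75 ± 0.34, adjusted p = 0.00135). Both held, and NAI1 was even across the arrays of UAS-NUC, array 2 included. PYK10, the beta-glucosidase itself, gave 5419, 2888 and 5699 against 1377, 3279.7 and 1454 (1.25 ± 0.34, adjusted p = 0.0124), with the second array of UAS-MGP above that of UAS-NUC. NAI2 (1.95 ± 0.49) and JAL22 (0.73 ± 0.25) completed the list.

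Heat shock genes were higher in UAS-NUC in 4 of 6 measured members, and these 4 were also called on the 6 arrays alone. AT5G51440, a small heat shock protein of mitochondria, gave 335, 227 and 398 in UAS-NUC against 86.2, 76.7 and 57.0 in UAS-MGP (1.89 ± 0.38, adjusted p = 0.00158). AT5G37670 gave 183, 55.4 and 155 against 21.9, 18.6 and 29.7 (1.78 ± 0.35, adjusted p = 0.00151). AT1G53540 gave 892, 718 and 881 against 382, 267 and 183 (1.58 ± 0.47, adjusted p = 0.018). AT1G52560, given above, was the fourth, and ROF2 (-0.43 ± 0.29) and ATHSP22.0 (0.14 ± 0.25) were not called.

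The sum of the 6 heat shock genes was 1292 to 2525 in UAS-NUC and 520.4 to 908 in UAS-MGP, with 426 to 1264 in WT and 320.0 to 499 in SHR. Wound and stress genes, which protoplasting can raise in roots, moved the same way in 3 of 4 members. CML38, a calmodulin-like protein, gave 2099, 1073 and 1884 in UAS-NUC against 431, 776 and 376 in UAS-MGP (1.66 ± 0.30, adjusted p = 0.000822) and held. STZ (0.73 ± 0.25) and WRKY6 (0.69 ± 0.25) were called in the fit of 24 arrays and not on the 6 alone, and WRKY53 was not called (0.62 ± 0.33). The part of such stress in the other differences was not tested.

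Epidermis and root hair genes were higher in UAS-NUC in 2 of 3 measured members. PER7 gave 403, 205 and 507 in UAS-NUC against 48.0, 108 and 60.6 in UAS-MGP (2.1 ± 0.42, adjusted p = 0.00177) and held. EXPA7, an expansin of growing root hairs, gave 110.2, 58.2 and 96.0 against 13.4, 33.3 and 22 (1.42 ± 0.46, adjusted p = 0.0285). EXPA18 was not called (0.79 ± 0.35), and XTH26 was under a signal of 16 on average in both lines, in SHR and in WT. The 4 named genes summed to between 345 and 739 in UAS-NUC, 87.8 and 242 in UAS-MGP, 158 and 339 in SHR and 68.5 and 148 in WT. The part of epidermal cells in the sorted fraction was not tested.

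Phenylpropanoid genes were higher in UAS-NUC in 4 of 5 measured members. F6H1, the hydroxylase that leads to the coumarin scopoletin, gave 3558, 2101 and 3426 in UAS-NUC against 775, 1646 and 801 in UAS-MGP (1.53 ± 0.30, adjusted p = 0.00139) and held. CCR2, a cinnamoyl-CoA reductase, gave 326, 96.8 and 298 against 22.7, 139.5 and 47.9 (1.66 ± 0.46, adjusted p = 0.0133). HCT (1.11 ± 0.23) and the monolignol glucosyltransferase UGT72E2 (0.66 ± 0.19) also rose, and UGT72E3 was not called (0.19 ± 0.17). Of the 4 calls, F6H1 alone remained on the 6 arrays.

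Auxin genes were higher in UAS-NUC in 3 of 8 measured members. GH3.3, an enzyme that conjugates auxin to amino acids, gave 3469, 1708 and 2749.7 in UAS-NUC against 539, 1634 and 941 in UAS-MGP (1.41 ± 0.37, adjusted p = 0.00938). IAA30 gave 217, 161 and 216 against 59.3, 111 and 59.6 (1.24 ± 0.34, adjusted p = 0.012). LBD16, a factor of lateral root initiation, gave 120.1, 95.8 and 137 against 36.4, 60.9 and 45.8 (1.07 ± 0.32, adjusted p = 0.0178). None of the 3 held, and IAA30 and LBD16 were also called on the 6 arrays alone. The differences of WES1, GH3.1, IAA29, GH3.17 and LBD29 lay between 0.24 and 0.68 and were not called.

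In the gibberellin list 1 of 5 members was higher and 1 lower. The receptor gene GID1B gave 385, 255 and 496 in UAS-NUC against 106, 229 and 131 in UAS-MGP (1.22 ± 0.33, adjusted p = 0.0123). SLY2, an F-box gene of the complex that removes DELLA proteins, gave 35.6, 93.6 and 45.3 against 102, 114 and 138 (-0.92 ± 0.33, adjusted p = 0.0396). Neither was called on the 6 arrays alone, and GID1A, GID1C and SLY1 were not called.

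Of the glucosinolate genes, the transporter GTR1 (1.18 ± 0.25) and AT2G25450 (1.05 ± 0.32), an oxygenase of side-chain modification, were higher among 4 measured, and GTR2 (1.02 ± 0.40) and UGT74B1 (0.38 ± 0.16) were not called. COR47, a dehydrin and the 1 measured gene of water stress, was higher by 1.19 ± 0.29. None of these 3 calls remained on the 6 arrays alone (adjusted p = 0.0585, 0.124 and 0.0698). No call was made for the mitosis genes AUR1, AUR2 and HTR12, whose differences lay between -0.68 and -0.33, or for the replication gene PRL (-0.96 ± 0.39). On these 4 genes UAS-NUC 2 was the highest UAS-NUC array, with PRL at 138, 532 and 231 in UAS-NUC and at 543, 448 and 581 in UAS-MGP. Without UAS-NUC 2 the mitosis genes were called lower in UAS-NUC, AUR1 at -1.20 (adjusted p = 0.0108), AUR2 at -1.10 (0.00665) and HTR12 at -0.69 (0.00506). AUR2 was also called without UAS-MGP 2, at -0.93 (adjusted p = 0.0498), where 2788 of all 15738 tested probe sets were called lower. The smallest adjusted p of PRL with 1 array left out was 0.00313. The stem cell genes AGL42 (-0.56 ± 0.24) and BBM (-0.40 ± 0.42) and the vascular gene LHW (-0.56 ± 0.30) were not called either.

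**Figure D4:**
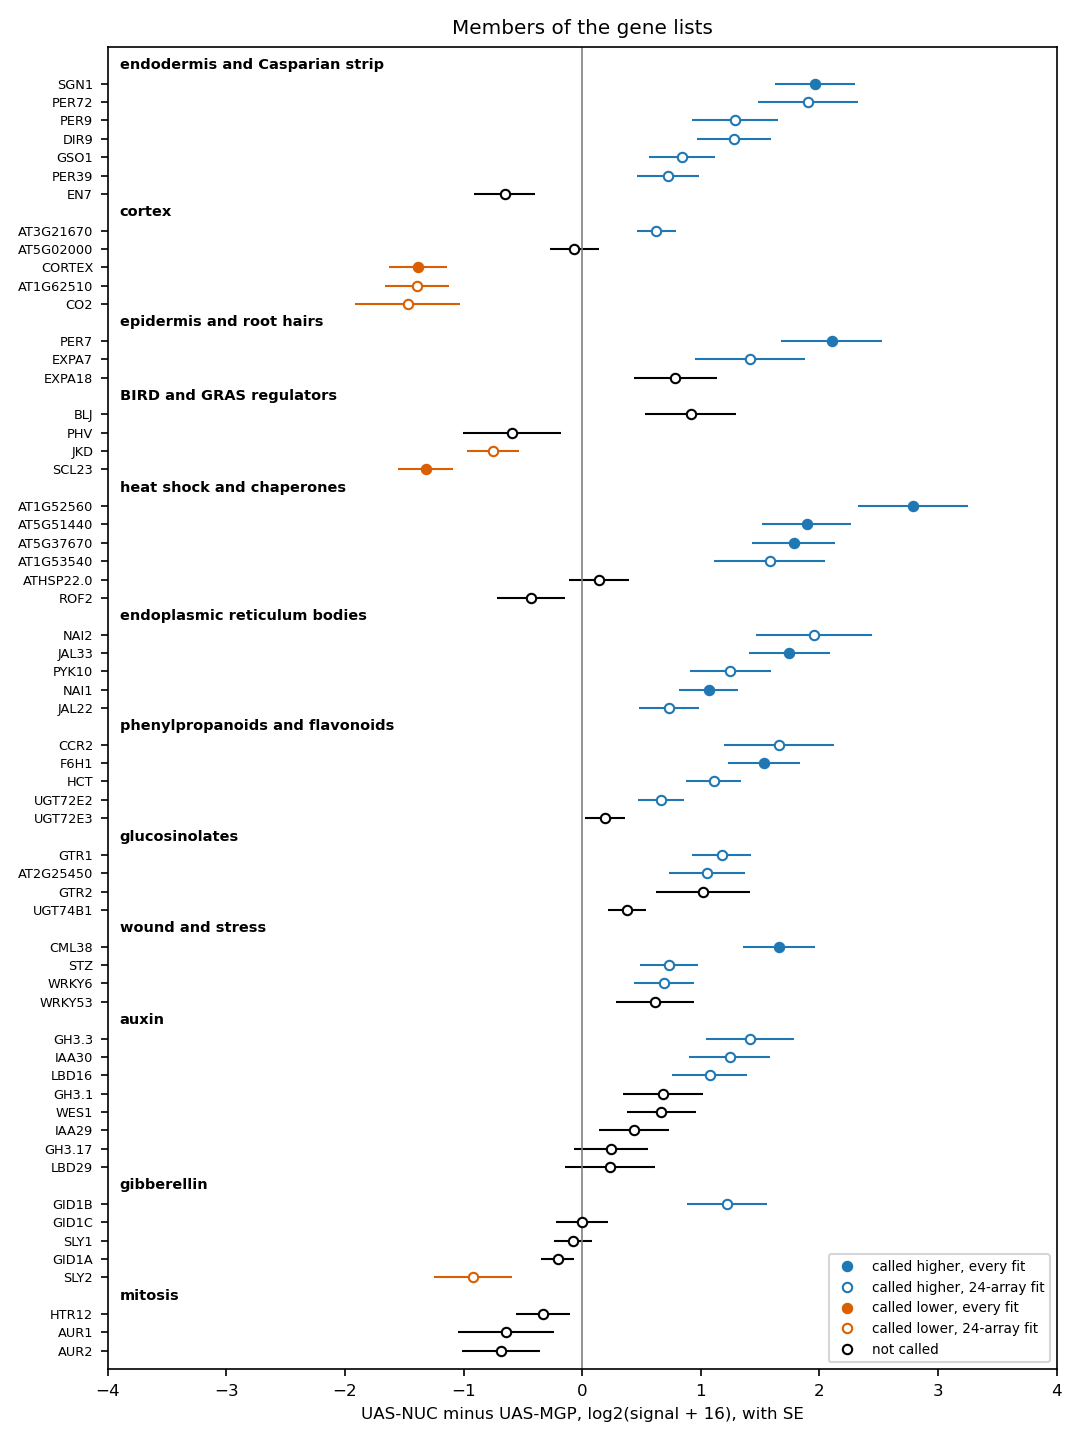
Difference of UAS-NUC minus UAS-MGP in log2(signal + 16), with its SE, for each measured member of the gene lists that have at least 3, grouped by list. Filled points are calls that held in every fit, open coloured points are calls of the fit of 24 arrays, and black points were not called. The endodermis, endoplasmic reticulum body and heat shock genes lie mostly right of 0, at up to 2.79, and 3 of the 5 cortex genes lie near -1.4.

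Gene families with at least 8 tested members were counted beside the shares of all tested probe sets, 13.8% higher and 15.6% lower. Fitted on the 6 arrays alone, the higher calls were 2 each for EF-hand proteins, expansins and glutathione S-transferases, 1 for glycosyl hydrolases and 0 for xyloglucan enzymes, cytochromes P450 and UDP-glycosyltransferases. Calmodulin-like and EF-hand calcium-binding proteins had 5 of 8 higher and none lower, with a median of 1.09 log2 units. Apart from CML38, AT1G76640 gave 2367, 2317 and 2819 in UAS-NUC against 1001, 1425 and 724 in UAS-MGP (1.29 ± 0.21, adjusted p = 0.000304). CML42 gave 794, 276 and 903 against 140.2, 290.3 and 141 (1.62 ± 0.37, adjusted p = 0.00404). AT1G76640 was even within UAS-NUC and held, whereas UAS-NUC 2 was within the range of UAS-MGP for CML42.

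Enzymes of the cell wall were divided. Expansins had 4 of 15 higher and 1 lower, xyloglucan enzymes 3 of 8 higher and none lower, and glycosyl hydrolases 2 of 9 in each direction. Among the last, GH9C1, an endoglucanase, gave 249, 101 and 188 in UAS-NUC against 30.9, 48.4 and 28.9 in UAS-MGP (1.85 ± 0.37, adjusted p = 0.00162). GH9B13, of the same family, gave 389, 826 and 628 against 1575, 1539.8 and 1564 (-1.38 ± 0.20, adjusted p = 9.82e-05). Both held, in opposite directions.

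Detoxification families were mixed as well. Glutathione S-transferases had 3 of 9 higher and 1 lower. GSTU28 gave 651, 198 and 548 in UAS-NUC against 66.1, 116 and 39.0 in UAS-MGP (2.36 ± 0.53, adjusted p = 0.00342), and GSTU16 gave 42.5, 43.2 and 50.3 against 118, 113 and 111 (-1.09 ± 0.18, adjusted p = 0.000336). UDP-glycosyltransferases had 5 of 29 higher and 3 lower, and cytochromes P450 had 2 of 11 higher and 1 lower, both near the shares of all probe sets. UGT72B3 was the 1 glycosyltransferase that held, at 40.9, 25.5 and 22.2 against 67.5, 117 and 105 (-1.30 ± 0.25, adjusted p = 0.0011).

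Placed in the order of the TAIR10.1 gene table, the genes lower in UAS-NUC were unevenly spread. Over 8497 placed genes 4.04% were called and at least 2-fold lower, and 5.83% higher, with a median of 3 lower and 6 higher in each stretch of 100 genes. The counts ran from 0 to 14 for the lower genes and from 2 to 11 for the higher ones. Adjacent stretches of chromosome 5, from AT5G40540 to AT5G43460 and from AT5G43520 to AT5G46680, held 14 and 13 lower genes, together 27 of 200 (13.5%) against 15 higher (7.5%). The second of them holds the NUC locus itself, AT5G44160. The first stretch of chromosome 1, which holds the MGP locus AT1G03840, had 5 lower and 7 higher.

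Chromosome 4 had a run of a similar kind, with 51 lower genes among the first 600 (8.5%) and 4.33% higher. These stretches were picked after their counts were seen, and no test was made of them. On the 6 arrays alone the lower genes were 10 of 168 (5.95%) in the stretches of chromosome 5, 27 of 512 (5.27%) in those of chromosome 4 and 56 of 6844 (0.818%) elsewhere. Without UAS-NUC 2 the shares were 20.7%, 17.2% and 12.2%.

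The lower genes of the chromosome 5 stretches were of unrelated kinds. They included SCL23, AT5G41685 and AT5G45500, given above, and ETFBETA, a subunit of the mitochondrial electron transfer flavoprotein, at 55.8, 68.8 and 79.2 in UAS-NUC against 356, 452 and 413 in UAS-MGP (-2.34 ± 0.22, adjusted p = 3.21e-07). The serine carboxypeptidase-like gene scpl42 gave 24.9, 21.4 and 19.6 against 158, 133 and 170.1 (-2.16 ± 0.22, adjusted p = 1.16e-06). VPS2.2, an ESCRT-III protein, gave 29.8, 110.5 and 61.3 against 325, 197 and 369 (-1.99 ± 0.39, adjusted p = 0.00152). All 3 held, as did 10 of the 27 in all, and in 24 of the 27 the lines did not overlap. Of the lower genes elsewhere, 188 of 267 did not overlap and 52 held. Both sets were picked as called and 2-fold lower on these arrays, so these counts follow in part from that choice. Over all tested probe sets, which were not picked in that way, UAS-NUC lay below without overlap in 17.5%.

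These genes were placed against the reference groups too. Of the 27, 18 (66.7%) were called lower in WT than in SHR in the one-cycle arrays, none higher, and 4 differed between UAS-NUC and WT. On chromosome 4 the same held for 36 of 51 (70.6%), with 6 that differed from WT. Elsewhere 47.9% of 267 lower genes were called lower in WT, and 41 differed between UAS-NUC and WT, a share near those of the stretches. ETFBETA, for example, held 369 ± 9 in SHR and 84.5 ± 20.6 in WT, and scpl42 held 143 ± 10 and 5.65 ± 3.23.

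**Figure D5:**
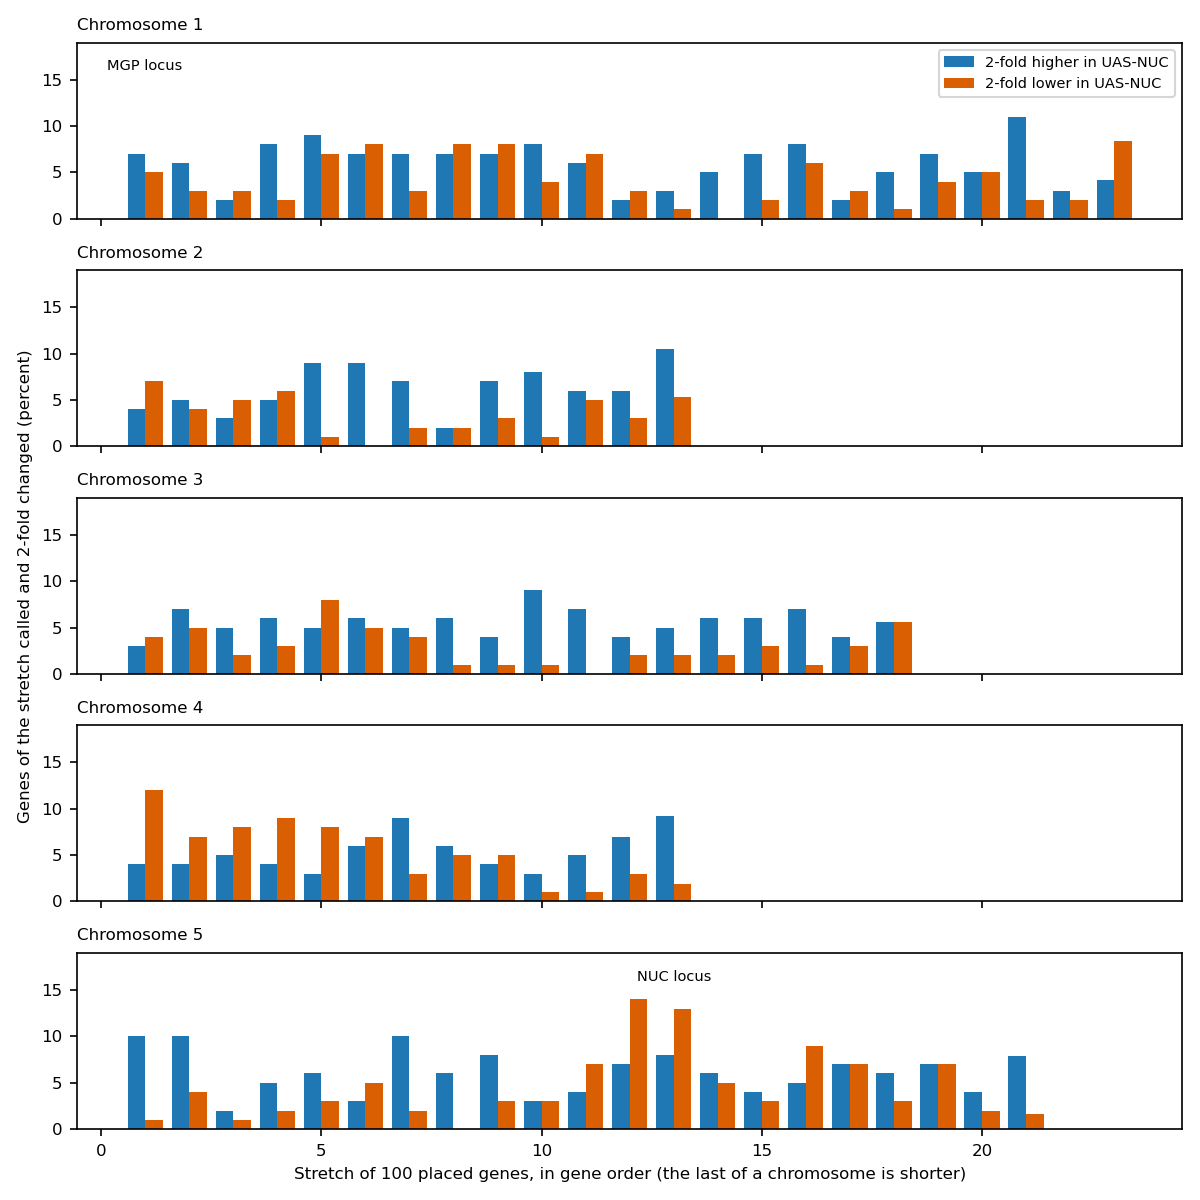
Percent of genes called and at least 2-fold lower or higher in UAS-NUC, in stretches of 100 placed genes along each of the 5 chromosomes, with the last stretch of a chromosome shorter. The lower genes peak at 14 and 13 of 100 in adjacent stretches of chromosome 5, the second of which holds the NUC locus, and at 12 in the first stretch of chromosome 4.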

How the data were processed

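Per the submitters' processing notes, the authors made the deposited intensity signals, which are linear and of 1 colour, with MAS5 (version not given). Their trimmed mean is the same on each array. From 22810 probe sets the 64 controls were removed. Of the rest, 14016 are annotated (13513 to 1 gene, 503 to several) and 8730 are unnamed, and 13436 of those with 1 gene matched TAIR10.1, used for names and gene order. Loci without a symbol there carry the name they have in the gene lists. Probe sets above the 40th percentile in at least 3 arrays were tested on log2(intensity + 16), a scale on which low signals change less, by limma 3.58.1 (lmFit and trended eBayes; R 4.3.3, version 1.17.8 of data.table) over 24 one-cycle J0571 arrays, with Benjamini-Hochberg adjustment over all tested probe sets.

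The rule for named genes took the 12 largest called changes of at least 2-fold each way, limited to unshared probe sets of a single gene whose higher mean exceeded the median. It also took the genes of the labels, up to 4 called members of each list, up to 3 of each family and 2 unnamed probe sets each way. Further list members are given to account for all of them, and scpl42, ETFBETA and VPS2.2 were picked with their values known. The members and lists were chosen with earlier results of these data known. Same-numbered arrays deviated from their group means with correlations of -0.41, -0.61 and -0.30. With 3 arrays a line these deviations are tied to each other, so they cannot settle whether the numbers pair the arrays. The fit was tested on simulated data that gave every group the same spread at a probe set. It thus did not test the wider spread of UAS-NUC. In all, 15 alternatives were tried. Figures were drawn in Python 3.11 with matplotlib 3.10.9. The number of arrays limits the precision.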

Additional observations from a re-analysis of the deposited data

Results flagged for a closer look

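In 3 of the named genes the lines were called against SHR in opposite directions, by the limma fit on 24 arrays. Both comparisons share the 3 SHR arrays, and the test of the difference between the lines is the pair's own contrast. AT1G10390 was 1.00 log2 units above SHR in UAS-NUC (adjusted p = 0.0266) and -2.63 in UAS-MGP (adjusted p = 7.02e-05), and the difference of 3.63 had an adjusted p of 3.72e-07 (0.00867 on the 6 arrays alone). AT5G04120 was at 1.5 in UAS-NUC (adjusted p = 1.54e-05) and -1.12 in UAS-MGP (adjusted p = 0.00132), a difference of 2.62 (adjusted p = 1.38e-08, and 0.000956 on the 6 arrays alone). AT2G04800 was at -2.07 in UAS-NUC (adjusted p = 8.43e-07) and 0.78 in UAS-MGP (adjusted p = 0.0247), a difference of -2.86 (adjusted p = 1.15e-08, and 0.000956 on the 6 arrays alone). Other UAS lines shared some of these levels. By group means, AT1G10390 was also low in UAS-BLJ (9.13), UAS-SCR (26.7) and UAS-JKD (53.7), but not in UAS-IME (318). AT5G04120 was below SHR (526) in UAS-IME (320) and above it in UAS-BLJ (1404), UAS-JKD (1419) and UAS-SCR (1567). AT2G04800 was low in UAS-JKD (32.5), UAS-SCR (52.9) and UAS-IME (22.0) and high in UAS-BLJ (321). With 3 arrays a group, no array was tested as an outlier.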

How the results depend on the processing

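The count of 4645 probe sets became 688 on the 6 arrays alone, where 4747 had an unadjusted p under 0.05, 2188 on 9 arrays with UAS-IME and 2626 with weights for each group's spread, an alternative chosen after seeing the data. With the replicate number as a block it was 4895 on 24 arrays and 6 on the 6 arrays alone. Whether the numbers pair the arrays was not settled. With a pseudocount of 64, 696 were 2-fold higher and 287 lower. On the 6 arrays alone these were 413 and 202, with a block 0 and 6, and 392 were lower on 9 arrays. Members called higher on the 6 arrays alone, on 9 arrays and on 6 with a block were 1, 3 and 0 of the endodermis, 2, 3 and 0 of endoplasmic reticulum bodies, 1, 2 and 0 of phenylpropanoids and 1, 1 and 0 of wound genes (1 with group weights). With the block on 6 arrays they were 0 for heat shock and auxin, as was the count of cortex genes called lower.

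Leaving out 1 array at a time gave 1527 to 7760 calls, 627 to 1626 at 2-fold higher and 256 to 1901 lower. It gave 2 to 5 endodermis, 2 to 5 endoplasmic reticulum body, 3 to 4 heat shock, 0 to 5 auxin, 2 to 4 phenylpropanoid and 1 to 4 wound genes higher and 2 to 3 cortex genes lower.

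Over 111 genes and all alternatives, 1366 of 1640 values kept their direction and side of the threshold, 244 lost the call, 18 gained it and 12 reversed. The reversals were of genes that were not called. Under quantile normalization AT5G02000 became 0.047, SLY1 0.035 and GID1C 0.025, and GID1C was 0.0025 with a pseudocount of 1. With 1 array left out GH3.17 ranged from -0.033 to 0.56, LBD29 from -0.033 to 0.71, AT5G02000 from -0.25 to 0.051, GID1C from -0.16 to 0.16 and BBM from -0.88 to 0.11. The cause was not tested. The number of arrays and the spread within UAS-NUC limit the precision.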
